A study of Rattus norvegicus with 30 samples.

Results

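The libraries described are the 9 made from rat testis explants held in culture for 16, 22 or 28 days (D16, D22 and D28, 3 libraries each), of 30 libraries in the whole series. They were chosen by the culture time in the labels, and the comparison is that of D28 with D16, with D22 as the step between. The explants came from Wistar Han rats of 8.5 dpp (days post-partum), so the labelled ages are 24.5 dpp, 30.5 dpp and 36.5 dpp (InVitro_24.5dpc, InVitro_30.5dpc and InVitro_36.5dpc, where dpc is written for the postnatal day). Every explant was a testis fragment kept on agarose at the gas-liquid interphase in αMEM with Knock-out serum replacement, retinol and vitamin E, and no group lacked any of these agents. Each library pooled explants of several males, and the necrotic centre of the explants was removed before RNA extraction, so the libraries hold the surviving rim of a mixed tissue.

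A prepubertal testis holds seminiferous tubules, in which Sertoli cells nurse the germ cells, and an interstitium with steroid-producing Leydig cells, peritubular cells, fibroblasts, vessels and resident macrophages. As Sertoli cells mature they stop dividing, seal the blood-testis barrier and secrete carrier proteins, protease inhibitors and fluid. Tissue under stress or sensing nucleic acids can switch on the interferon response, in which factors such as Irf7 and Irf9 bind interferon-stimulated response elements in the promoters of antiviral genes. In bulk tissue such as this, more cells of a type and more RNA per cell cannot be told apart.

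The defining markers were checked first, in FPKM (fragments scaled to transcript length and to the mapped reads of a library). Sox9 and Wt1, transcription factors of Sertoli cells, were read at 45.2 to 50.8 and at 132 to 189 FPKM over the 9 libraries. The germ cell markers Ddx4 (4.52 to 8.20 FPKM) and Dazl (39.1 to 105 FPKM) were present, whereas Prm1, a protamine of late spermatids, is listed at 0 in all 9 libraries and Acrv1, an acrosomal protein, at 0.109 FPKM or less. The spermatid marker Tnp1 was at 0 to 0.236 FPKM at D16 and 0 to 2.62 FPKM at D22, and is listed at 0 at D28. Of the Leydig cell genes, Cyp11a1 reached 2.26 FPKM and Cyp17a1 0.839 FPKM at most. The haemoglobin gene Hbb is listed at 0 in all 9 libraries and Hba1 in all but 1. None of the markers of germ cells, Sertoli cells, Leydig cells, peritubular cells, endothelium, macrophages, lymphocytes and fibroblasts that could be tested passed the comparison of D28 with D16. The tight junction gene Cldn11 came closest, at 330, 377 and 350 FPKM at D16 and 467, 538 and 458 FPKM at D28 (log2 difference 0.47, 95% interval 0.26 to 0.68, limma adjusted p = 0.0564).

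Distances between libraries were compared. Over all genes tested, the Euclidean distance on the log2 scale was 36.0 to 38.2 between D16 libraries, 42.4 to 43.5 between D22 libraries and 43.4 to 54.6 between D28 libraries, against 41.8 to 59.7 from D16 to D28. Without D28 replicate 1, the remaining D28 pair lay 43.4 apart, within the range of the D22 pairs. D28 replicate 1 stood apart, at 56.4 to 59.7 from the D16 libraries, where the other D28 libraries lay at 41.8 to 50.5, and it was the extreme of Dimension 1 of the PCA (27.2% of the variance). Absolute depth is unknown. From the spacing of low values, relative depth ranged from 0.765 for D28 replicate 1 to 1.3 for D16 replicate 2, with D16 replicate 1 as 1.

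Of 11256 genes tested, 123 changed between D16 and D28 at an adjusted p of at most 0.05, which is 1.09% of those tested. They were 82 genes that rose (0.729%) and 41 that fell (0.364%). With median centring, the split was 114 higher and 32 lower. When the ratio of medians also had to reach 2, 53 genes rose (0.471%) and 14 fell (0.124%). The D16 and D28 libraries of all 123 genes did not overlap, a separation that 12.3% of all genes tested showed upwards and 13.7% downwards. At an unadjusted p under 0.05, 1133 genes were higher (10.1%) and 1292 lower (11.5%). A log2 change above 0 was found for 5402 genes (48.0%) and a change below 0 for 5852.

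The number of genes that passed depended on single libraries. Without D16 replicate 1 the number was 13, without D16 replicate 2 it was 18 and without D16 replicate 3 it was 42. It was 76, 68 and 70 without D22 replicates 1, 2 and 3. Without D28 replicates 1, 2 and 3 it was 69, 1111 and 29. The balance of directions moved too, with 390 higher and 721 lower without D28 replicate 2, 6 higher and 7 lower without D16 replicate 1, and 9 in each direction without D16 replicate 2. With array weights, which gave D28 replicate 3 the most weight of the D28 libraries, 660 genes were higher and 845 lower.

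The D22 levels of these genes are given as a description, since the share of a change reached by D22 rests on the same D16 libraries that chose the genes. The level at D22 lay between those of D16 and D28 for 109 of the 123 genes, and the median share of the log2 change reached by D22 was 72.4% for the genes that rose and 62.2% for those that fell. From D16 to D22, 27 genes passed (0.24% of those tested), 17 higher (0.151%) and 10 lower (0.0888%). From D22 to D28 1 gene passed (0.00888%), and it was lower. Off the straight line between D16 and D28, 3 genes passed at D22 (0.0267%). All 3 (Rpl24, Tubb2b and Snurf) are genes listed at 0 in whole groups, described with the falls.

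**Figure D1:**
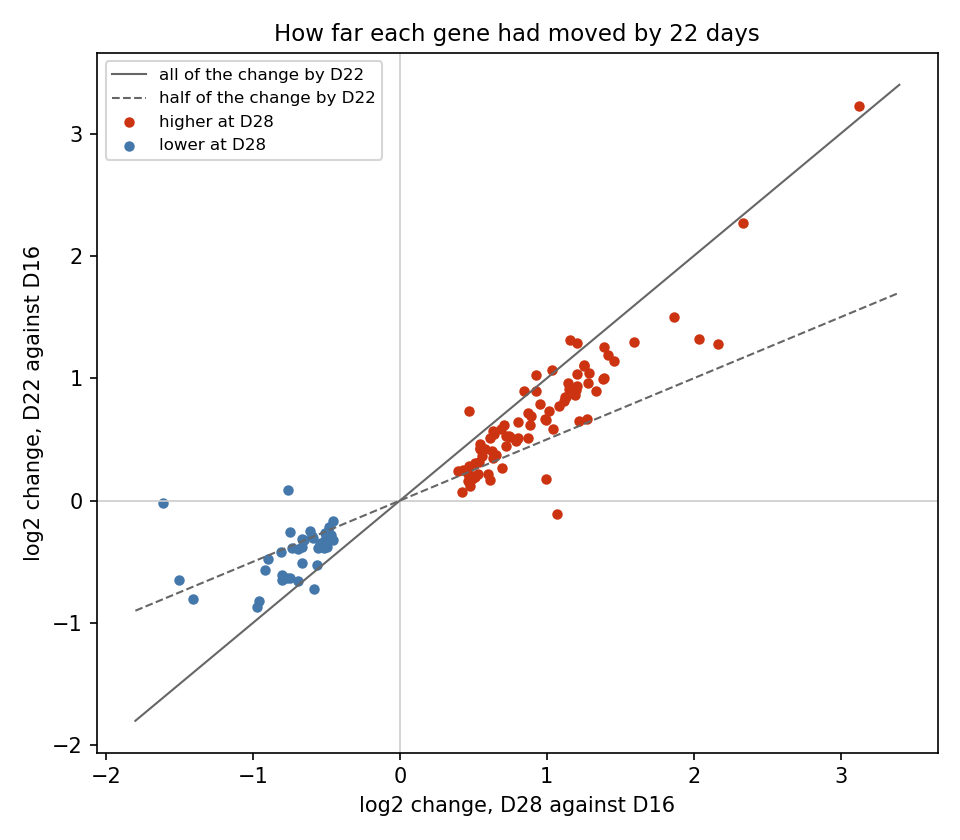
Log2 change of FPKM + 1 from D16 to D22 (vertical axis) against that from D16 to D28 (horizontal axis) for the genes that passed from D16 to D28, without the 4 that are listed at 0 in a whole group. The solid line marks a gene that had made its whole change by D22 and the dashed line a gene midway. Both axes share the D16 libraries, and most points lie between the lines or near the solid line.

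Interferon-stimulated genes had more rises than any other list. Of the 46 on the list that were tested, 10 rose and none fell, which is 21.7% against 0.729% of all genes. A log2 change above 0 was found for 43 of the 46, against 48.0% of all genes. The median change of the list was 0.43, where that of all genes tested was -0.01. The 10 were Ifi27l2b, Isg15, Isg20, Irf7, Ifit3, Mx1, Oasl2, Irgm, Ifi47 and Irf9. The list was drawn up with earlier results of these data known, so its count is not independent evidence of its direction.

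Promoter sequence is shown for members of this group, and for RT1-S3, Vcam1 and Apol9a, because their windows hold the element. Egr4 and Slc9a2, which also rose, hold a match too (Slc9a2 in 1 window and not in another) and are not shown. The windows of Cx3cl1, Il33, C3ar1 and Bcl3, immune genes that also rose, held no match. The stretches come from RefSeq promoters on GRCr8 (250 bases before to 50 bases after the annotated start), not from the rn6 build of the deposited file. Capitals mark GAAANNGAAA, the core of the interferon-stimulated response element, or its reverse complement TTTCNNTTTC, and each stretch is written 5′ to 3′ in the direction of the gene.
Ifit3 (chr1:241527272-241527301, plus strand): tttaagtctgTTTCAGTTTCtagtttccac
Irf7 (chr1:205800073-205800102, minus strand): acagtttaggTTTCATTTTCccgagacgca
Oasl2 (chr12:47383317-47383346, minus strand): aaagctttggTTTCAGTTTCcaggcttgag
Isg20 (chr1:142239957-142239986, plus strand): taatgaaccaGAAACTGAAActaaaacggc
Irgm (chr10:33742593-33742622, minus strand): tcaaggaataGAAACTGAAAccgactctct
RT1-S3 (chr20:2675406-2675435, plus strand): ctcctgctgcTTTCTCTTTCataaagacac
Vcam1 (chr2:206742810-206742839, minus strand): aagagcagacTTTCTATTTCactcacacca
Apol9a (chr7:111028263-111028292, minus strand): atgagagTTTCACTTTCCATTTCctggatc
In Apol9a 2 matches overlap. The motif, searched on both strands, was in 22 of the 34 interferon-stimulated genes tested that had a promoter in the table (64.7%), in 10 of the 61 genes with a promoter that rose (16.4%) and in none of the 33 that fell. It was in 4.12% of the 27457 genes with a promoter of this length and in 3.0% of those tested. The windows of Mx1, Ifi47 and Irf9 held no match, and Isg15 and Ifi27l2b have no entry in the table. A match describes these letters only.

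Isg15 encodes a ubiquitin-like protein that interferon induces. Its level was 6.92, 9.37 and 9.54 FPKM at D16, 24.7, 17.6 and 23.8 FPKM at D22 and 30.2, 25.5 and 17.9 FPKM at D28. All D22 and D28 libraries lay above all D16 libraries (D28 against D16, log2 change 1.39, standard error 0.207, limma adjusted p = 0.0234). Irf7, the factor that drives the amplifying phase of the response, stood at 3.34, 4.79 and 5.36 FPKM at D16, 8.99, 9.80 and 13.8 FPKM at D22 and 11.5, 12.8 and 11.6 FPKM at D28 (log2 change 1.25, standard error 0.176, limma adjusted p = 0.0206). Its level at D6 was 2.46 ± 0.221 FPKM (SD, n = 3), so the means of Irf7 rose in order of culture time, while the D22 and D28 libraries overlapped. Irf9, which carries the STAT factors to the response element, was read at 13.5, 14.6 and 15.6 FPKM at D16 and at 23.3, 22.4 and 19.7 FPKM at D28. This was a change of 0.55 on the log2 scale (limma adjusted p = 0.0333).

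The antiviral effectors also lay higher at D22 than at D16. Mx1, a GTPase that blocks virus replication, was at 1.62 to 2.29 FPKM at D16, at 4.62 to 5.05 FPKM at D22 and at 3.78 to 5.95 FPKM at D28. Ifit3 was at 1.01 to 1.35, 3.27 to 5.18 and 3.05 to 5.23 FPKM in the same order, and Oasl2 at 1.43 to 2.09, 3.40 to 4.55 and 3.66 to 4.26 FPKM. For these genes the D22 and D28 libraries overlapped while both lay above D16, and each of them passed from D16 to D22 as well (limma adjusted p = 0.045 for Mx1, 0.0415 for Ifit3 and 0.0376 for Oasl2). Irgm, a GTPase of the autophagic defence, also passed by D22 (limma adjusted p = 0.0364). The exonuclease gene Isg20 had its D22 libraries between the other groups, going from 1.21, 1.79 and 1.62 FPKM at D16 through 2.74, 2.73 and 3.67 FPKM at D22 to 7.12, 4.72 and 3.96 FPKM at D28. Ifi27l2b had the largest change of the group and the widest spread, with 12.6, 15.8 and 17.8 FPKM at D16 and 118, 45.9 and 67.9 FPKM at D28 (log2 change 2.16, standard error 0.381, limma adjusted p = 0.0405).

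The most abundant members of the list did not pass. Ifitm3, which keeps viruses in endosomes, was at 250, 211 and 192 FPKM at D16 and at 410, 245 and 308 FPKM at D28 (log2 difference 0.54, 95% interval 0.13 to 0.94, limma adjusted p = 0.159). Lgals3bp missed narrowly (log2 difference 0.48, limma adjusted p = 0.0598). Ifitm2, Bst2 and Ifitm1 differed by 0.14, 0.15 and 0.13 on the log2 scale. The count of 10 fell to 0 without D16 replicate 1 or D16 replicate 2, to 3 without D16 replicate 3, to 2 without D28 replicate 1 and to 4 without D28 replicate 3, and it was 17 without D28 replicate 2. The median of the list stayed between 0.38 and 0.51 in the 9 fits.

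**Figure D2:**
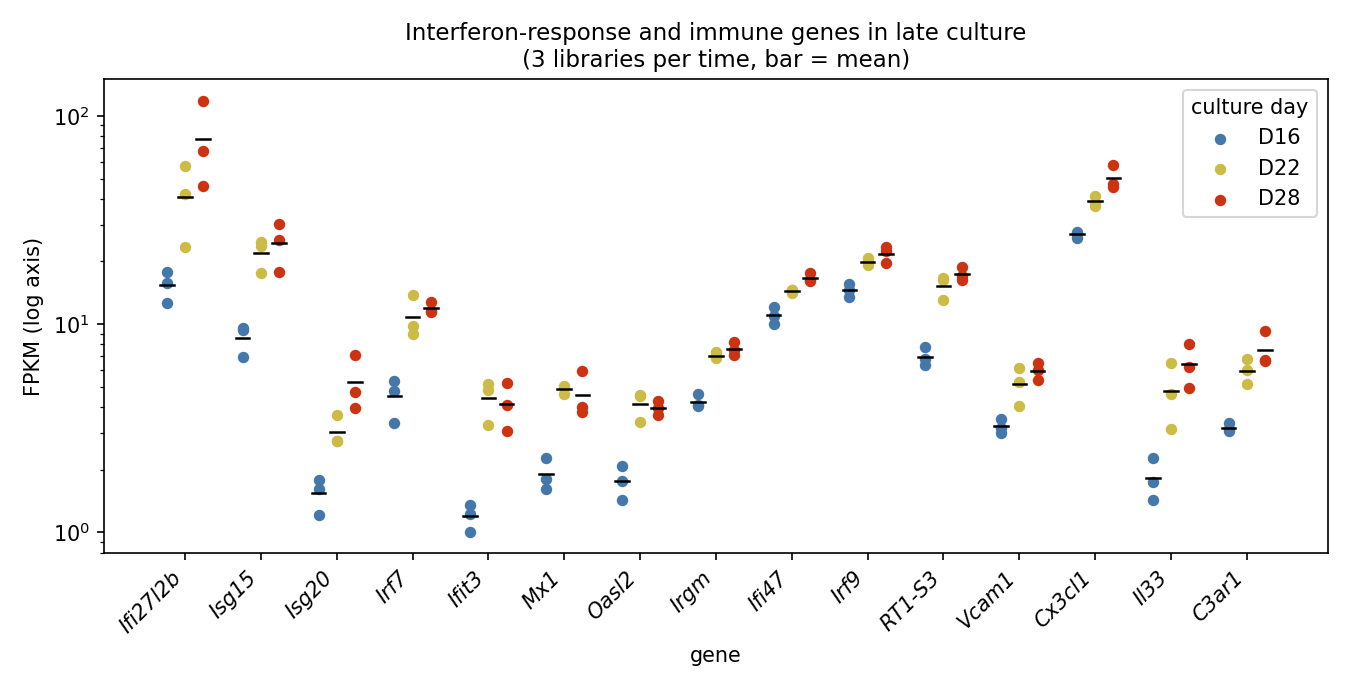
FPKM (log axis) of the interferon-stimulated and immune genes that rose, by library at D16, D22 and D28, with a bar at the mean of 3 libraries. D16 lies below D28 for each gene, with Isg15 at 6.92 to 9.54 FPKM against 17.9 to 30.2 FPKM, and for Mx1, Ifit3 and Oasl2 the D22 libraries already overlap those of D28.

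Among genes of antigen presentation a single member passed. Of 30 genes of the MHC and antigen processing that were tested, 1 rose (RT1-S3, 3.33% against 0.729% of all genes) and none fell. Of the 30, 25 had a log2 change above 0 (48.0% of all genes did) and the median was 0.51. At an unadjusted p under 0.05, 40.0% were higher, against 10.1% of all genes, and 3.33% lower, against 11.5%. RT1-S3, a non-classical class I gene, was at 6.35, 6.77 and 7.73 FPKM at D16, 16.3, 13.1 and 16.6 FPKM at D22 and 18.7, 17.1 and 16.2 FPKM at D28 (log2 change 1.21, standard error 0.113, limma adjusted p = 0.00329). It passed in all 9 fits that left out a library. Class I genes are near-identical copies, so reads of RT1-S3 may be shared with others. B2m, the light chain of class I molecules, was at 289, 237 and 272 FPKM at D16 and 475, 369 and 323 FPKM at D28 (log2 difference 0.53, limma adjusted p = 0.121). Without D28 replicate 1 the median of the list was 0.21.

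Other immune lists also held genes that rose. Of 28 chemokines and cytokines 2 rose (7.14%) and of 33 genes of the NF-kB and acute-phase response 1 rose (3.03%). Of 23 complement genes 2 rose (8.70%), C3ar1 and Clu, the latter also on the Sertoli cell list. None of these lists had a gene that fell, and 0.729% of all genes tested rose. At an unadjusted p under 0.05, 39.3%, 33.3% and 30.4% of the 3 lists were higher, against 10.1% of all genes. In the same order 0%, 0% and 4.35% were lower, against 11.5% of all genes. These lists too were drawn up with earlier results of these data known. Cx3cl1, the membrane-bound chemokine of monocytes, was at 27.2, 27.7 and 25.9 FPKM at D16, 38.1, 37.1 and 41.4 FPKM at D22 and 58.3, 47.3 and 45.8 FPKM at D28 (log2 change 0.87, limma adjusted p = 0.0115), with no overlap between any of the times. The alarmin Il33 went from 1.75, 2.28 and 1.43 FPKM to 8.07, 6.26 and 4.96 FPKM (log2 change 1.39, limma adjusted p = 0.0333). Vcam1, an adhesion molecule for leukocytes, went from 3.50, 3.18 and 3.01 FPKM to 6.52, 5.38 and 6.02 FPKM (limma adjusted p = 0.0432). C3ar1, the receptor of complement fragment C3a, went from 3.06, 3.34 and 3.15 FPKM to 6.65, 9.22 and 6.75 FPKM (limma adjusted p = 0.018). Bcl3, a nuclear partner of NF-kB, went from 2.27, 1.55 and 2.63 FPKM to 9.45, 5.61 and 6.74 FPKM (limma adjusted p = 0.02). It is among the largest rises and not on these lists. The median change of the chemokine list was 0.30 and that of the NF-kB list 0.28, and without D28 replicate 1 they were 0.15 and 0.08. Without D16 replicate 1 or D16 replicate 2, no gene of these 3 lists passed.

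The markers of macrophages were read beside these genes. None of the 31 tested passed, where 1.09% of all genes did. Of the 31, 26 had a log2 difference above 0 (48.0% of all genes did), and their median was 0.22, or 0.10 without D28 replicate 1. Their summed level was 339 to 359 FPKM at D16, 312 to 424 FPKM at D22 and 360 to 599 FPKM at D28. Among the defining markers, Cd68 was at 5.59 to 5.87 FPKM at D16 and 5.58 to 12.3 FPKM at D28, C1qa at 26.3 to 30.3 and 24.2 to 50.8 FPKM, and Adgre1 at 0.908 to 1.19 and 0.590 to 0.946 FPKM. The part of macrophage content in the rise of the immune genes was not tested. Of 26 markers of lymphocytes, granulocytes and mast cells in the file, 12 were at 0 in all 9 libraries, 8 were tested and 1 passed (Cd8a, lower, described with the falls). Cd4 was at 5.17 to 8.39 FPKM in the 9 libraries.

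**Figure D3:**
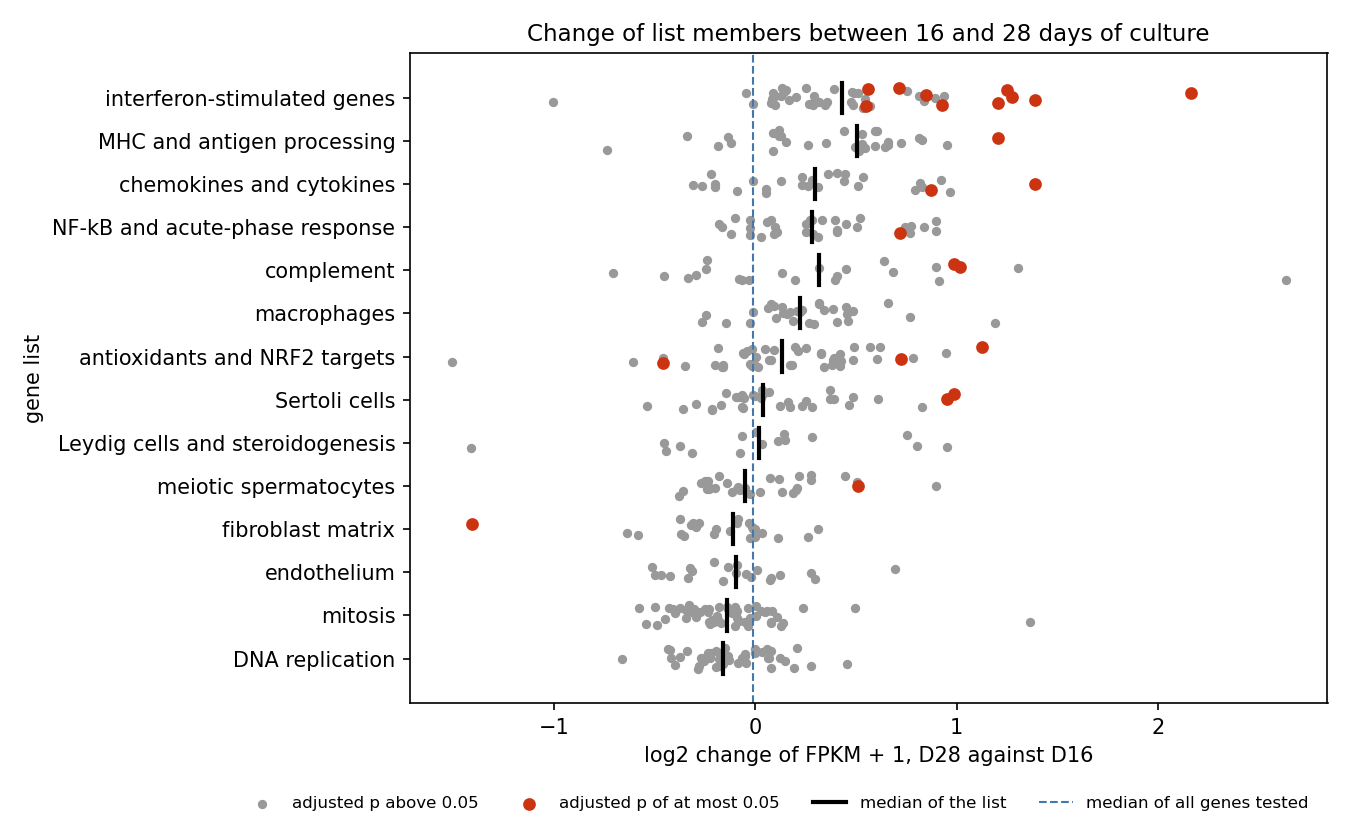
Log2 change of FPKM + 1 from D16 to D28 (horizontal axis) for every tested member of 14 gene lists (rows). Red points passed at an adjusted p of at most 0.05, black bars mark the median of a list and the dashed line that of all genes tested. The interferon-stimulated genes hold 10 red points and a median of 0.43, and DNA replication none and a median of -0.16.

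Several secreted proteins and a water channel, some of them products of Sertoli cells, were among the other genes that rose. They form no list. Of 34 tested genes of the Sertoli cell list 2 rose (Clu and Cst12, 5.88% against 0.729% of all genes), none fell and the median was 0.04. At an unadjusted p under 0.05, 6 were higher (17.65%, against 10.1% of all genes) and 2 lower (5.88%, against 11.5%). The summed level of the list, which includes Clu, was 6176 to 7027 FPKM at D16 and 7981 to 9159 FPKM at D28. Clu encodes clusterin, a secreted chaperone and 1 of the most abundant Sertoli cell products. It was at 1340, 1559 and 1637 FPKM at D16, 2630, 2344 and 2219 FPKM at D22 and 2989, 2618 and 3391 FPKM at D28 (log2 change 0.98, standard error 0.124, limma adjusted p = 0.016), after 486 ± 60.8 FPKM (SD, n = 3) at D6. Cst12, a cystatin first found in Sertoli cells, was at 132, 124 and 128 FPKM at D16 and 201, 238 and 322 FPKM at D28 (log2 change 0.95, limma adjusted p = 0.0432). The broadly expressed inhibitor cystatin C (Cst3) also rose, from 273, 296 and 267 FPKM to 726, 518 and 592 FPKM (log2 change 1.12, limma adjusted p = 0.00819). Cst3 is no member of the lists and was chosen after its values were seen.

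Serpina5, the protein C inhibitor of the reproductive tract, was at 9.70, 17.4 and 15.1 FPKM at D16, 43.7, 46.5 and 33.0 FPKM at D22 and 35, 56.6 and 72.7 FPKM at D28. Its change was 1.86 on the log2 scale (standard error 0.286, limma adjusted p = 0.0246). Aqp8, a water channel of Sertoli cells, was at 66.8, 92.1 and 106 FPKM at D16, 201, 136 and 154 FPKM at D22 and 202, 203 and 260 FPKM at D28 (log2 change 1.33, limma adjusted p = 0.0246). It was the only 1 of 12 tested genes of the aquaporin and ion transport list to pass, and at D6 it had stood at 12.6 ± 1.56 FPKM (SD, n = 3). Npc2, a lysosomal and secreted carrier of cholesterol, rose from 217, 271 and 281 FPKM to 379, 397 and 392 FPKM (limma adjusted p = 0.0335). The tubulin gene Tubb3, on the list of nerve markers, rose from 26.9, 39.0 and 29.1 FPKM to 58.1, 52.5 and 71.5 FPKM (limma adjusted p = 0.0432), while none of the other 5 tested genes of that list passed.

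In testes of the same labelled ages these genes took another course. Between 24.5 and 36.5 dpp, Clu was at 1649 ± 381 and 441 ± 63.9 FPKM and Aqp8 at 305 ± 18.1 and 108 ± 6.83 FPKM (SD, n = 3). The change in culture exceeded that in testes by 2.87 on the log2 scale for Clu (limma adjusted p = 2.1e-06), by 2.82 for Aqp8 (1.5e-06), by 2.90 for Serpina5 (4.49e-05) and by 2.01 for Cst12 (0.00145). Of all 12420 genes tested for this difference, 68.2% passed, and 100 of the 123 genes did. They were 74 of the 82 genes that rose and 26 of the 41 that fell. Of the 82 genes that rose in culture, 49 fell in testes (55% of all genes did), 9 rose (22.1%) and 24 did not pass. Of the 41 genes that fell in culture, 25 fell in testes, 5 rose and 11 did not pass.

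**Figure D4:**
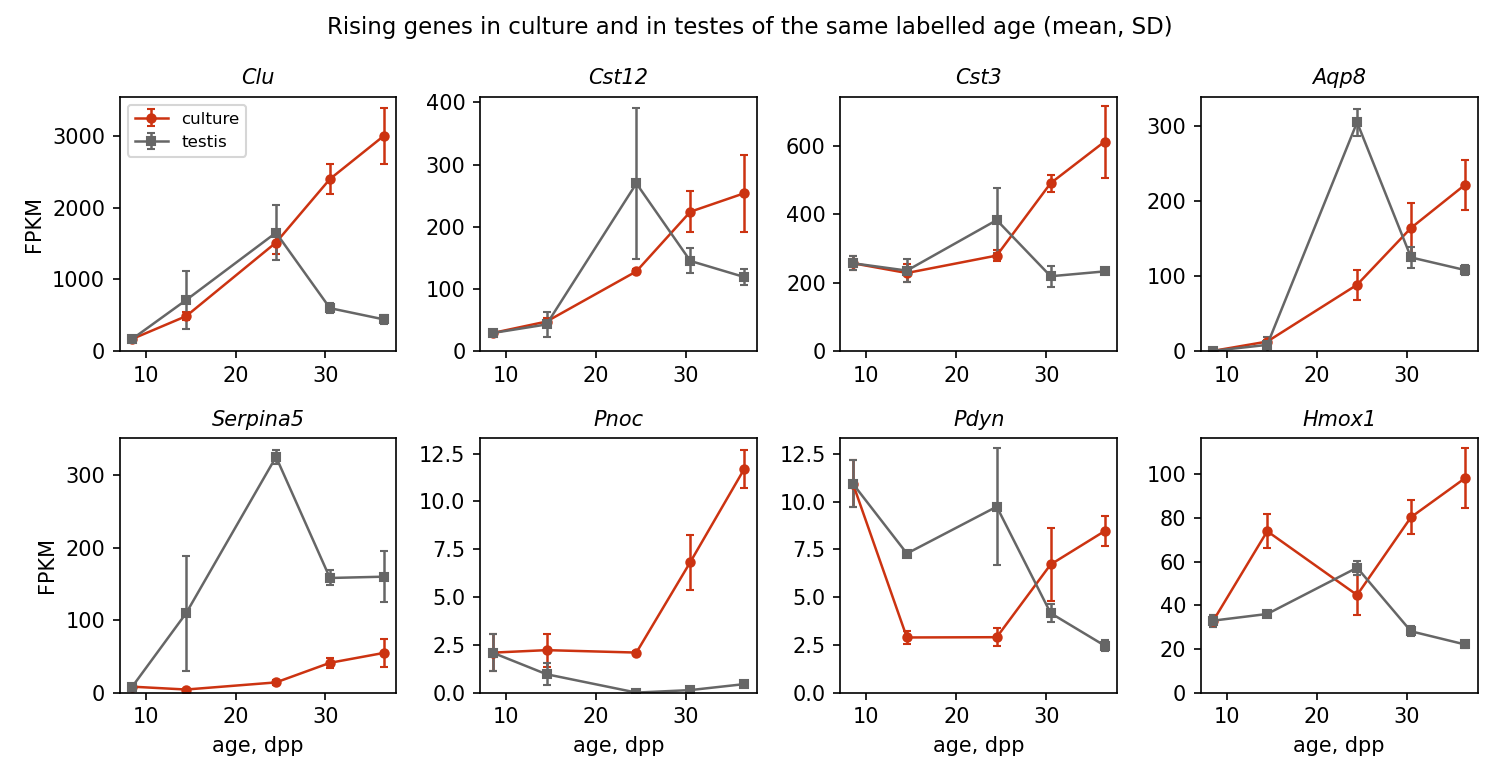
FPKM (mean, SD) against age in dpp for 8 genes that rose between D16 and D28, in culture (red circles; 8.5 dpp is the testis at the start, then D6, D16, D22 and D28) and in testes (grey squares). Clu and Aqp8 rise in culture to their highest mean at D28, whereas their testis means are highest at 24.5 dpp.

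Both Pnoc and Pdyn, which encode precursors of opioid-family peptides, were among the largest rises, and other members of that family were not examined as a list. Pnoc, the precursor of nociceptin, had 1 of the firmest changes, from 2.17, 2.13 and 1.97 FPKM at D16 through 8.47, 5.77 and 6.25 FPKM at D22 to 12.8, 10.8 and 11.5 FPKM at D28 (log2 change 2.03, standard error 0.128, limma adjusted p = 0.000257). It passed in all 9 fits that left out a library, and it is listed at 0 in the 24.5 dpp testes and at 0.443 ± 0.0596 FPKM (SD, n = 3) at 36.5 dpp. Pdyn, the precursor of dynorphins, was at 2.49, 3.42 and 2.78 FPKM at D16 and 8.33, 9.31 and 7.72 FPKM at D28 (log2 change 1.28, limma adjusted p = 0.0187). Libraries of D16 lay below all those of D22 and D28 for both.

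Stress genes passed in both directions. Of 46 antioxidant and NRF2 target genes tested, 2 rose (Hmox1 and Mt1, 4.35%), 1 fell (Prdx3, 2.17%) and the median was 0.13. Of all genes, 0.729% rose and 0.364% fell. At an unadjusted p under 0.05, 16 of the 46 were higher (34.8%, against 10.1% of all genes) and 4 lower (8.70%, against 11.5%). Hmox1, which breaks down haem, was at 35.8, 44.0 and 54.3 FPKM at D16, 77.6, 89.1 and 74.2 FPKM at D22 and 111, 83.7 and 99.5 FPKM at D28 (log2 change 1.13, limma adjusted p = 0.0218). At D6 it had stood at 73.9 ± 7.74 FPKM (SD, n = 3), so D16 was the lowest of the culture times. Mt1, a metal-binding metallothionein, rose from 86.5 to 104 FPKM at D16 to 155 to 165 FPKM at D28 (limma adjusted p = 0.0206). Prdx3, a mitochondrial peroxidase, fell from 73.8, 73.5 and 71.8 FPKM to 50.0, 52.9 and 56.2 FPKM (limma adjusted p = 0.0396). No gene passed among 32 of apoptosis, 38 of hypoxia, 27 heat shock proteins, 36 p53 targets and cell-cycle inhibitors or 43 of the amino acid and ER stress response. The medians of these lists lay between -0.05 and 0.14. Lists of this size would hold few or none at the 1.09% of all genes that passed.

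Single genes of other lists rose too. Alas2, the first enzyme of haem synthesis in erythroid cells, went from 1.21, 1.21 and 1.99 FPKM to 4.41, 6.88 and 8.49 FPKM (log2 change 1.60, limma adjusted p = 0.0206) while Hbb is listed at 0 throughout. Adh1c, an alcohol dehydrogenase, went from 0.668, 1.60 and 1.59 FPKM to 6.18, 4.18 and 4.76 FPKM (limma adjusted p = 0.02). Nr1d1, the clock repressor REV-ERBα, was at 15.4, 16.7 and 14.9 FPKM at D16, 17.7, 16.4 and 17.3 FPKM at D22 and 21.8, 22.0 and 22.6 FPKM at D28 (limma adjusted p = 0.0292). It was the only gene of 20 on the clock list to pass, and Nr1d2, Csnk1d, Tef and Nfil3 differed by -0.29, -0.10, -0.10 and 0.36 on the log2 scale without passing. Egr4 of the immediate early genes and Mlxipl, a glucose-sensing activator of lipid synthesis, rose by 0.63 and 0.40 on the log2 scale (limma adjusted p = 0.0443 and 0.0469). The lens crystallin Cryga rose by 1.29 (limma adjusted p = 0.0469), with 17.9 FPKM in D28 replicate 1 against 8.35 and 8.96 FPKM in the other D28 libraries.

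The row of the microRNA gene Mir202, chosen after its values were seen, was level from D16 to D22 and higher at D28. It was at 1.85, 2.31 and 3.47 FPKM at D16, 1.93, 2.87 and 1.94 FPKM at D22 and 6.62, 6.12 and 6.16 FPKM at D28 (D28 against D16, log2 change 1.07, limma adjusted p = 0.0292). The D28 libraries stood above all others, while the step from D22 to D28 did not pass. The libraries were made from poly(A) RNA, so the row reads transcripts that cover the hairpin and not the mature strands, whose sequences are given from RefSeq (GRCr8) with the seed in capitals.
rno-miR-202-5p (chr1:204184390-204184408, minus strand): uUCCUAUGcauauacuucu
rno-miR-202-3p (chr1:204184352-204184372, minus strand): aGAGGUAUagcgcaugggaaa

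Few germ cell genes passed, but lists this small would hold few or none at the 1.09% of all genes tested that passed. No gene passed among 13 of undifferentiated spermatogonia, 15 of differentiating germ cells or 10 of spermatids, and 1 of 31 meiotic genes rose (3.23%). Of the undifferentiated spermatogonia list 11 of 13 had a log2 difference above 0 (48.0% of all genes did), and the median was 0.21. At an unadjusted p under 0.05, 4 of the 13 were higher (30.8%, against 10.1% of all genes) and 0 lower. The median of the meiotic list was 0.31 from D16 to D22 and -0.31 from D22 to D28. The meiotic gene that rose was Piwil1, a piRNA-binding protein of spermatocytes, which stayed under 1 FPKM (0.256, 0.187 and 0.40 FPKM at D16 and 0.820, 0.803 and 0.830 FPKM at D28, limma adjusted p = 0.0285) and stood at 125 ± 10.7 FPKM (SD, n = 3) in 36.5 dpp testes. Dazl, an RNA-binding protein of germ cells, had a log2 difference of -0.70 (95% interval -1.38 to -0.02, limma adjusted p = 0.226). Sycp3 of the synaptonemal complex had a log2 difference of -0.03 (95% interval -0.66 to 0.61). Cox8c, a respiratory subunit of the testis, rose from 0.229, 0 and 0 FPKM to 2.77, 1.23 and 2.02 FPKM (limma adjusted p = 0.0292), against 1346 ± 127 FPKM (SD, n = 3) in 36.5 dpp testes.

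No gene of the steroidogenesis and cell division lists passed, where 1.09% of all genes tested did. None of 16 tested genes of Leydig cells and steroidogenesis passed, a list too small to tell from that share, and the median was 0.02. The regulator Nr5a1, also made by Sertoli cells, was level (log2 difference -0.07, 95% interval -0.33 to 0.20). Hsd3b1, a steroid dehydrogenase, came nearest, at 11.2, 9.79 and 8.38 FPKM at D16 and 28.4, 16.1 and 16.7 FPKM at D28 (log2 difference 0.95, limma adjusted p = 0.0765). Insl3, a peptide hormone of Leydig cells, was at 0.395 to 1.22 FPKM at D16 and at 1.27 to 2.36 FPKM at D28 (log2 difference 0.75, limma adjusted p = 0.125). Of 57 mitosis genes 43 had a log2 difference below 0 and of 48 DNA replication genes 35 did, as did 5852 of all 11256 genes tested. At an unadjusted p under 0.05, 26.3% of the mitosis genes were lower and 1.75% higher. Of the replication genes 10.4% were lower and 0 higher, against 11.5% and 10.1% of all genes. The medians of the 2 lists were -0.14 and -0.16, with no gene past the threshold. Without D28 replicate 1 these medians were -0.06 and -0.06. Without D28 replicate 2, 5 of 57 mitosis genes and 3 of 48 replication genes passed as lower and 1 mitosis gene as higher. In that fit 721 of all 11311 genes tested passed as lower and 390 as higher.

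The genes that fell belonged to no list in number. Periostin (Postn), a matrix protein of fibroblasts, was at 20.3, 14.3 and 14.6 FPKM at D16, 12.2, 8.68 and 6.41 FPKM at D22 and 5.41, 5.05 and 6.05 FPKM at D28 (log2 change -1.41, standard error 0.209, limma adjusted p = 0.0234). It was the only 1 of 26 fibroblast matrix genes to pass, although 21 of them had a log2 difference below 0 (median -0.11), as did 5852 of all 11256 genes tested. At an unadjusted p under 0.05, 7 of the 26 were lower (26.9%, against 11.5% of all genes) and 0 higher (against 10.1%). Collagen gene Col3a1 differed by -0.35 (limma adjusted p = 0.388) and Sparc by -0.09. Olfml2a, a matrix-binding olfactomedin-like protein, was at 34.3, 32.5 and 35.4 FPKM at D16, 20.7, 18.0 and 17.9 FPKM at D22 and 18.2, 16.2 and 16.7 FPKM at D28 (limma adjusted p = 0.0031). It passed in all 9 fits that left out a library, and at D6 it had stood at 18.3 ± 1.24 FPKM (SD, n = 3), near the D28 level.

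Septin10, a cytoskeletal GTPase, fell at each step, from 21.2, 24.4 and 23.2 FPKM at D16 through 12.9, 12.9 and 17.4 FPKM at D22 to 7.58, 6.82 and 7.96 FPKM at D28 (log2 change -1.50, standard error 0.125, limma adjusted p = 0.00158). In testes it stood at 39.8 ± 18.2 FPKM at 24.5 dpp and 83.2 ± 7.04 FPKM at 36.5 dpp (SD, n = 3), and the difference between the changes was -2.65 on the log2 scale (limma adjusted p = 7.23e-05). Vash2, a tubulin carboxypeptidase, fell from 9.86, 8.83 and 10.5 FPKM to 4.19, 4.95 and 4.22 FPKM (limma adjusted p = 0.0138), after 18.4 ± 0.869 FPKM (SD, n = 3) at D6. Mmd fell from 34.6, 32.9 and 35.9 FPKM to 14.9, 23.3 and 16.1 FPKM (limma adjusted p = 0.0396).

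Cd8a, a co-receptor of T cells, fell from 21.8, 17.9 and 18.3 FPKM at D16 through 12.2, 12.7 and 16.2 FPKM at D22 to 8.67, 11.4 and 9.72 FPKM at D28 (log2 change -0.90, limma adjusted p = 0.0246). Its D6 level was 24.2 ± 0.820 FPKM (SD, n = 3), so the means declined over all 4 culture times. The T cell gene Cd3e was at 1.21 FPKM or less in the 9 libraries and did not pass. Dkk3, a secreted Wnt modulator, fell from 26.6, 24.4 and 21.1 FPKM to 14.7, 15.1 and 11.3 FPKM (limma adjusted p = 0.0467), the only 1 of 36 genes of the Wnt and TGF-beta family to pass. Hhip, which traps hedgehog ligands, fell from 1.65, 1.34 and 1.55 FPKM to 0.496, 0.675 and 0.596 FPKM (limma adjusted p = 0.0218). At lower levels Ccnjl (3.03 to 3.91 FPKM at D16), Nfe2 (0.878 to 1.22 FPKM) and Slit1 (0.784 to 1.03 FPKM) fell by 0.80, 0.75 and 0.67 on the log2 scale, with limma adjusted p = 0.0253, 0.0112 and 0.0246.

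**Figure D5:**
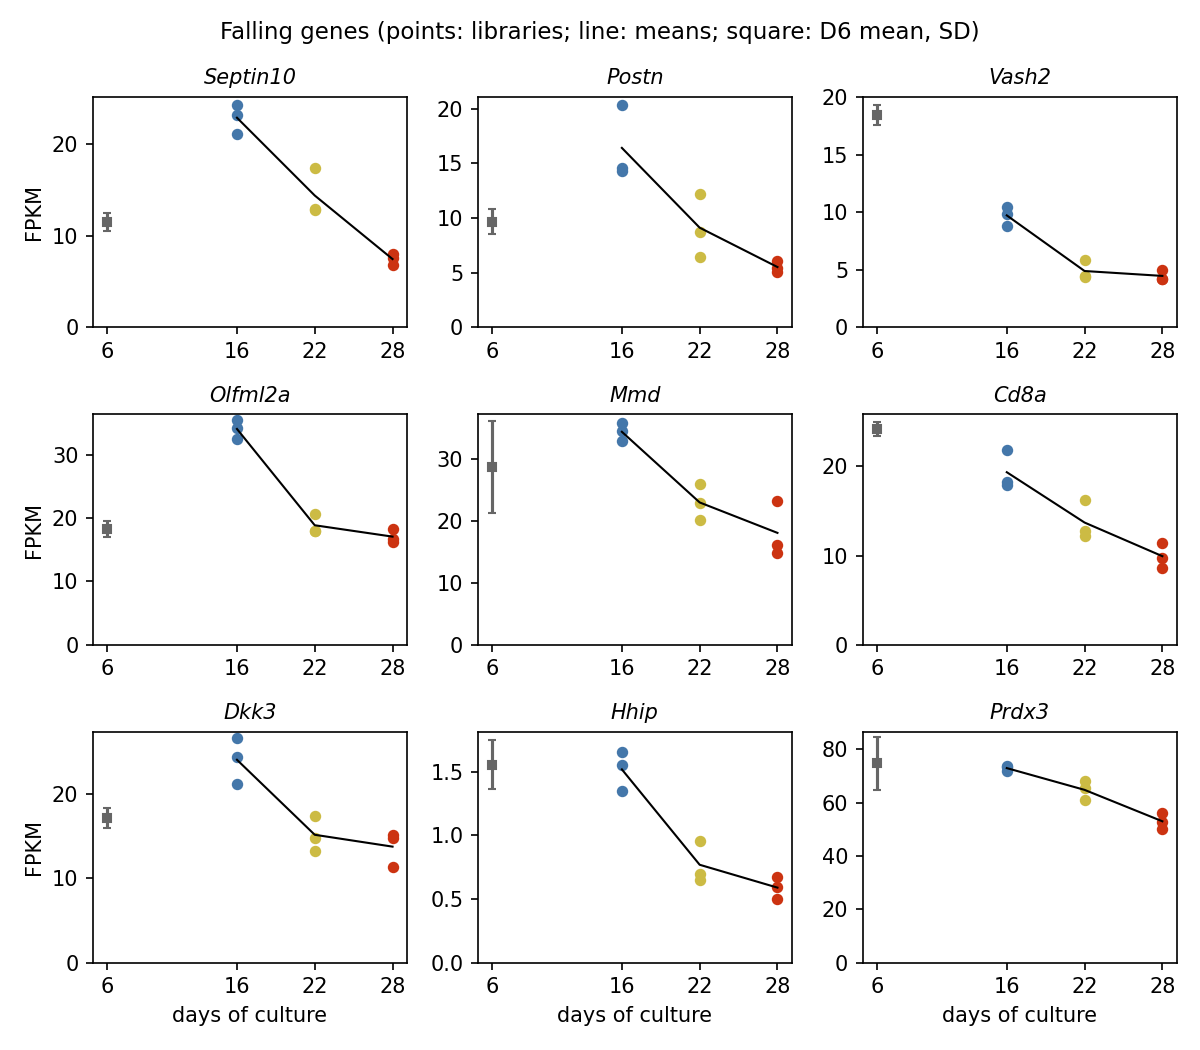
FPKM of 9 genes that fell between D16 and D28 against days of culture, with a point per library, a line through the means and, as a grey square with its SD, the mean at D6. Vash2 and Cd8a are highest at D6, whereas Septin10, Postn and Olfml2a are highest at D16.

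Some rows changed in ways that are tied to how the file lists genes. Rpl24, a ribosomal protein that every cell uses, is listed at 85.0, 76.9 and 89.3 FPKM at D16 and at 0 in every library of D6, D22 and D28. Tubb2b and Snurf are likewise above 0 in the D16 libraries (5.66 to 6.55 FPKM and 1.21 to 1.44 FPKM) and listed at 0 at D22 and D28, as is Qki (0.557 to 1.41 FPKM at D16). These rows passed as lower, but no fold is given for a row listed at 0. Across the file, 7 genes are listed at 0 in every library of a late group and at 1 FPKM or more in every library of another. Without the 46 tested genes listed at 0 in all libraries of a group, 118 genes passed (81 higher and 37 lower) from D16 to D28 and 15 from D16 to D22.

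A few named genes jumped between groups while their D6 level lay elsewhere. The largest rise was that of Kcnk1, a potassium channel, at 1.04, 0.976 and 0.787 FPKM at D16, 24.3, 14.7 and 13.8 FPKM at D22 and 22.8, 13.4 and 13.0 FPKM at D28 (log2 change 3.13, standard error 0.248, limma adjusted p = 0.00145), with 15.4 ± 4.98 FPKM (SD, n = 3) at D6. Selenoh, a nuclear selenoprotein, went from 10.4, 6.12 and 12.6 FPKM to 69.7, 53.9 and 35.7 FPKM (limma adjusted p = 0.018) after 22.8 ± 22.3 FPKM (SD, n = 3) at D6. Ruvbl2, an ATPase of chromatin remodelling complexes, was at 4.69, 5.99 and 4.43 FPKM at D16, 4.73, 4.73 and 5.36 FPKM at D22 and 1.28, 0.924 and 0.712 FPKM at D28, and was the gene that passed from D22 to D28. Whether the listing of overlapping transcripts moved these rows was not tested.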

How the data were processed

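Poly(A) RNA of 9 cultured tissues (D16, D22 and D28, 3 libraries each) was compared, with D6 cultures and testes as context. Nothing in the labels ties libraries to separate animals, so p-values measure the spread between these pooled samples. The authors aligned single reads with STAR 2.5.2a to rn6, quantified RefSeq genes with StringTie and Ballgown, and deposited FPKM (named RPKM in their methods). FPKM are relative to transcript length and mapped reads, so they do not show absolute RNA content, and read counts were not used here.

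FPKM were transformed to log2(FPKM + 1), so changes of low genes are understated. Of 17322 genes, the 11256 whose median reached 0.5 FPKM in 1 or more groups entered a fit of the 3 groups with limma 3.58.1 (lmFit and eBayes) in R 4.3.3. Tests are two-sided, adjusted by Benjamini-Hochberg over all genes tested, and a gene passed at an adjusted p of at most 0.05. The difference between culture and testes was tested in a fit of D16, D28, 24.5 dpp and 36.5 dpp. The method was tested on simulated data in which all libraries of a gene had the same spread, so libraries of unequal spread were not tested. Distances and figures were made in Python 3.11.15 with matplotlib 3.10.9.

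The members and gene lists were chosen with earlier results of these data known. Named genes are the 15 largest rises and falls that passed with separate libraries and a ratio of medians of at least 2, list members that passed with up to 4 that did not, the cell type markers, the largest departures from the line, and abundant genes of 3 lists. In the fall direction 14 genes met the rule. Apol9a, Cst3, Mir202 and Slc9a2 were chosen after their values were seen. Alternatives changed the pseudocount, filter, groups fitted, normalization, variance model, weights and libraries. The result of 1 gene that met the naming rule is not reported here.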

Additional observations from a re-analysis of the deposited data

Results flagged for a closer look

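The results listed here are those in which the change from D16 to D28 in culture and the change from 24.5 to 36.5 dpp in testes differed in a test of the difference itself (limma, adjusted p of at most 0.05), given as culture minus testes on the log2 scale. This held for 100 of the 123 genes that changed in culture, beside 68.2% of all genes tested. They were 74 of the 82 genes that rose and 26 of the 41 that fell. Of the secreted proteins and the water channel described above, the difference was 2.87 for Clu, 2.01 for Cst12, 2.82 for Aqp8 and 2.90 for Serpina5. The difference was 1.51 for Pnoc and 1.82 for Isg15. It was -2.65 for Septin10 and -6.25 for Vash2, whose testis level went from 0.821 ± 0.260 to 69.1 ± 6.70 FPKM (SD, n = 3). Of the 41 genes that fell in culture, 25 also fell in testes and 5 rose. Cell makeup differs between the cultures and the testes, and its part in these differences was not tested.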

How the results depend on the processing

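From D16 to D28 the 123 genes became 25 in a fit of D16 and D28 alone, 277 with D6 added to the fit, 1505 with array weights (660 higher and 845 lower; weights 0.251 for D28 replicate 1, 0.429 for D28 replicate 2 and 2.36 for D28 replicate 3) and 67 with the ratio of medians. They were 13 to 1111 without single libraries. From D16 to D22 the 27 genes became 15 without the filter, 12 at a median of 5 FPKM, 59 with D6 in the fit, 17 with a trended variance, 123 with array weights and 15 without genes listed at 0 in a whole group, an alternative chosen after seeing the data. They were 4 to 29 without single libraries. From D22 to D28 the 1 gene (831 genes at an unadjusted p under 0.05) became 0 in limma at a median of 5 FPKM and 3 in a fit of both groups alone, and 0 to 6 without single libraries. Off the line the 3 genes became 5 without the filter, 5 with D6, 10 with array weights, 0 without genes listed at 0, and 2 to 10 without single libraries, the 10 being without D28 replicate 1. With the replicate block, 42, 11 and 0 genes passed in the 3 comparisons of times. Libraries that share a replicate number deviated together in 2 of 9 pairs (correlation over 0.1, range -0.0731 to 0.19). Among 18 pairs with different numbers 0 did (range -0.219 to 0.0756). The main fit did not take the numbers as pairs, and the replicate block gives the counts when they are. Whether equal numbers share a source was not tested. The test of culture against testes gave 7632 to 8658 genes. Of single-gene values past the threshold, 861 stayed past it over the alternatives and 360 did not, with no reversal. Of the 9 fits that left out a library, Mx1, Irf9, Nr1d1, Npc2, Tubb3, Mmd, Dkk3, Prdx3, Egr4 and Mlxipl passed in 1. Cst12, Piwil1, Ifi47, Cryga and Ccnjl passed in 2 of these fits. The causes were not tested, and depth is unknown, so counting error could not be given.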
